A study of Homo sapiens with 9 samples.

Results

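The genes described here are the U3, U8 and U13 small nucleolar RNA (snoRNA) genes, 7 of the 62700 genes of the GENCODE version 44 annotation. They are the 5 copies of U3 (SNORD3A, SNORD3B-1, SNORD3B-2, SNORD3C and SNORD3D), the U8 gene SNORD118 and the U13 gene SNORD13. A peak was counted for a gene when its summit, the position of highest signal, lay within 1000 bp of the gene start or when the peak overlapped the gene. The genes were chosen by measured values of the same data, namely the presence of peaks and their rank by fold enrichment, so presence and rank are given as a description with no test. Every member peak overlapped its gene, so no member depended on the 1000 bp window. The shared peaks had summits as far as 1936 bp from the start of SNORD3B-1 and 2114 bp from that of SNORD3C, both outside the window and counted by overlap.

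The study mapped RNA polymerase II by chromatin immunoprecipitation and sequencing (ChIP-seq) with an antibody to POLR2A, its largest subunit, in HEK293T, a human embryonic kidney line that carries the SV40 large T antigen. Cells with a control shRNA, labelled wildtype, were set beside cells in which U2AF1 was knocked down, and beside cells with knockdown of DHX9. U2AF1 is a splicing factor that binds the AG at the 3′ splice site, and DHX9 is a helicase that unwinds RNA and RNA:DNA hybrids. The 9 samples were 2 ChIP libraries and 1 input library for each condition, but the files give a single peak list per condition, with 2757 peaks for the control, 1730 for the U2AF1 knockdown and 4443 for the DHX9 knockdown. No difference between lists therefore has a replicate error or a test. The peak names of the control list carry a replicate-like suffix that those of the knockdown lists lack, and whether the control list stands for 1 library or both is not given in the sources used here. The extent of each knockdown cannot be read from peak lists.

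Most human snoRNAs are cut out of the introns of host genes, but U3, U8 and U13 are transcribed from their own promoters. These promoters are built like those of the spliceosomal small nuclear RNA (snRNA) genes: a proximal sequence element binds the SNAP complex, RNA polymerase II makes the transcript, and the Integrator complex forms the 3′ end. U3 pairs with the precursor of ribosomal RNA and is needed for the cleavages that release 18S rRNA. U8 takes part in the maturation of the rRNAs of the large ribosomal subunit, and U13 guides acetylation of 18S rRNA.

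All 5 U3 genes lie on chromosome 17, and their near identity sets how their peaks can be read. The SNORD3A RNA gene is shown whole, with the letters of its box C (TGATGA) and box D (CTGA) in capitals. The box C/D class of snoRNAs is named for these boxes. It lies at chr17:19188016-19188232 on the plus strand of hg38.

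SNORD3A RNA gene: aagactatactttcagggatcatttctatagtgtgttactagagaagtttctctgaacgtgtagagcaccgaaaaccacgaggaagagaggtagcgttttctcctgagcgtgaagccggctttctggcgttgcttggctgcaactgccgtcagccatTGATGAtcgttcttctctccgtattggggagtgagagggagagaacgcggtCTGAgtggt

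The 250 bases before the SNORD3A start (chr17:19187766-19188015, plus strand) are shown because the upstream edge of the peak lies within them. Capitals mark a CCAAT box, read here on the opposite strand, and a match to the letters CNCCNTNA, taken for the proximal sequence element.

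SNORD3A promoter: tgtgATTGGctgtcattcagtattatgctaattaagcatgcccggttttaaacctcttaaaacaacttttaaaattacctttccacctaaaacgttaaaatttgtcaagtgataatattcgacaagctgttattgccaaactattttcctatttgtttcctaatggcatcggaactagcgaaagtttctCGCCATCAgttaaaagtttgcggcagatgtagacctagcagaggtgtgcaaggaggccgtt

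The 70 bases from 10 before the start to 60 into the RNA show how little separates the copies. Capitals mark the bases that differ from the majority of the 5 copies. The stretches lie at chr17:19188006-19188075 (plus) for SNORD3A, chr17:19061902-19061971 (plus) for SNORD3B-1, chr17:19064077-19064146 (minus) for SNORD3B-2, chr17:19190186-19190255 (minus) for SNORD3C and chr17:19112577-19112646 (minus) for SNORD3D.
SNORD3A: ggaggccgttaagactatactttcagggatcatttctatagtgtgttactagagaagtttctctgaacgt
SNORD3B-1: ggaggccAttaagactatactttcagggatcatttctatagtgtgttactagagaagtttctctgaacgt
SNORD3B-2: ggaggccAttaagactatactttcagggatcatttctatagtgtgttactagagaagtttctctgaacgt
SNORD3C: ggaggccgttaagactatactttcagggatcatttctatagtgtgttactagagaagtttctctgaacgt
SNORD3D: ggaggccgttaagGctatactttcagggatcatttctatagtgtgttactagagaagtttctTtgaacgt

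Each U3 RNA is 217 bases long, and over the 10 pairs of copies the RNAs were 98.2% to 100% identical, with 0 to 4 differing bases. Against SNORD3A, counting from 1 at the 5′ end of the RNA with the SNORD3A base first, SNORD3B-1 and SNORD3B-2 carried A78C, SNORD3C carried G108A, and SNORD3D carried A4G, C53T and A78C. The 250 bases before the start were 98.8% to 100% identical, with at most 3 differing bases, and the 500 bases after the RNA were 92.4% to 100% identical. SNORD3B-1 and SNORD3B-2 had the same RNA and the same 250 upstream bases. SNORD3A and SNORD3C had the same 250 upstream and 500 downstream bases, with 1 differing base in the RNA. The 250 upstream bases were thus the same within each of these pairs.

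Peaks were called at all 7 genes for the control, at 6 for the U2AF1 knockdown and at 7 for the DHX9 knockdown, and 6 genes had a peak in all 3 lists. The 7 genes rest on 5 separate peaks in the control and DHX9 knockdown lists and on 4 in the U2AF1 knockdown list, because 2 pairs of U3 genes share a peak each. By the same rule 5.93% of all annotated genes had a peak for the control, 3.42% for the U2AF1 knockdown, 9.79% for the DHX9 knockdown and 2.07% in all 3. Among the 934 other annotated snoRNA genes, most of which lie in introns, the shares were 3.32%, 1.82% and 2.78%, with 1.71% in all 3. The genes were picked for having peaks, so nothing is read from these shares. SNORD13 was the member with no peak in the U2AF1 knockdown list.

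**Figure D1:**
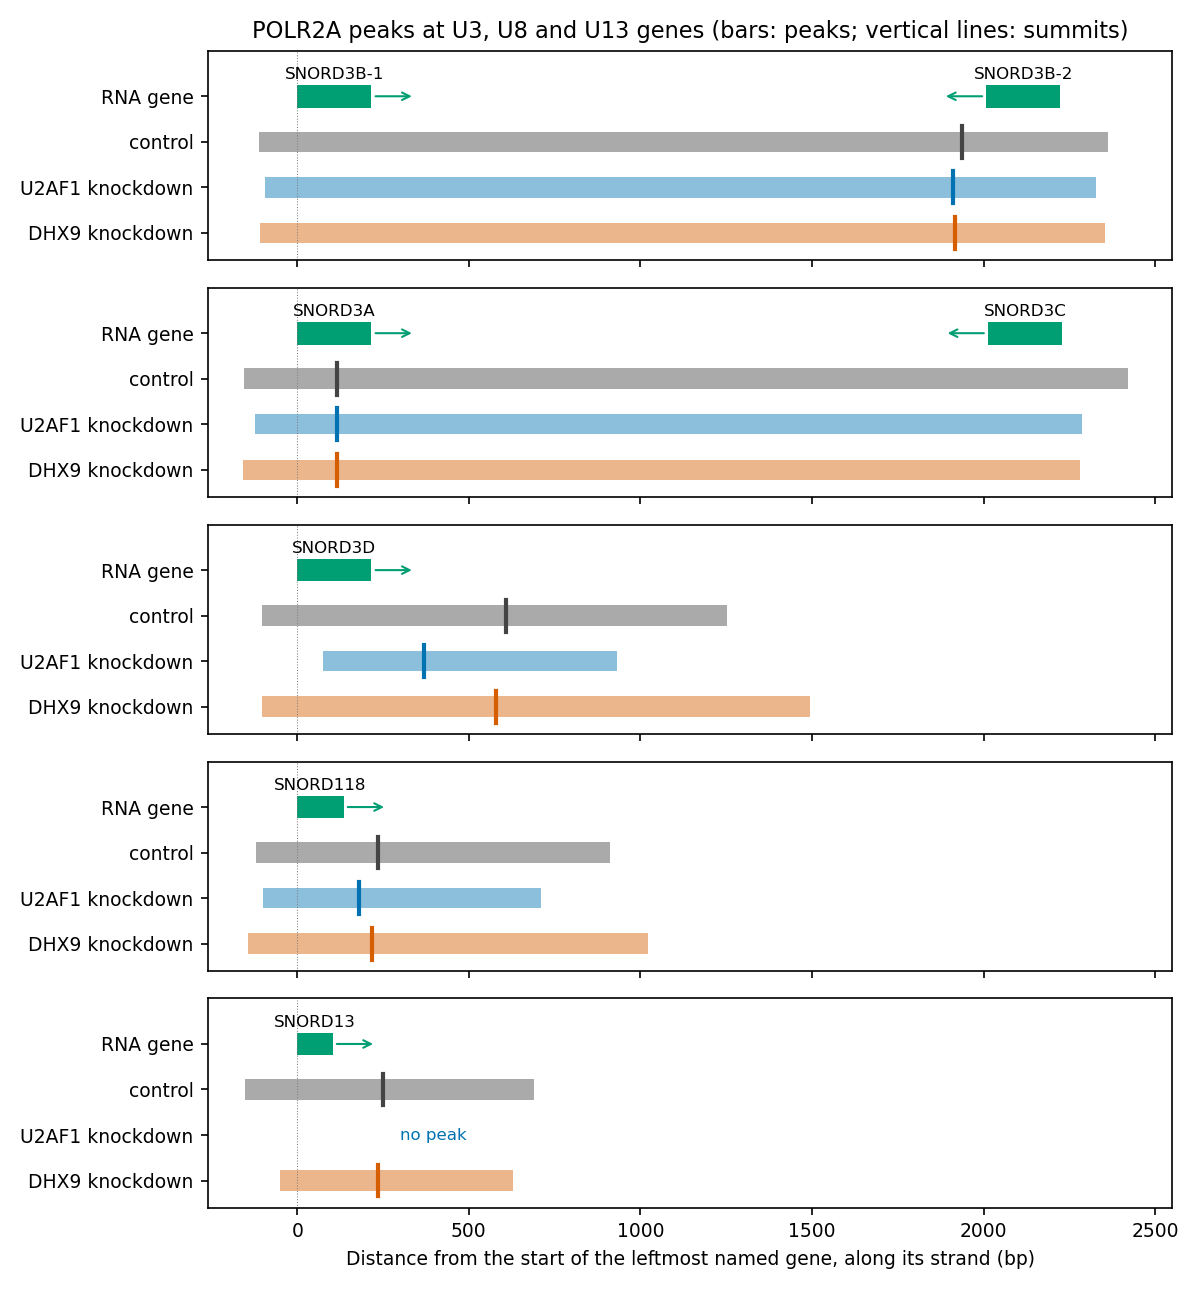
Peaks of the 3 lists at the 5 loci, drawn along the strand of the first gene named in each panel, with distance from its start in bp. Green boxes are the RNA genes with arrows for direction, bars are peaks and vertical lines their summits. A single peak of 2413 to 2579 bp spans each pair of U3 genes, and the SNORD13 panel has no bar for the U2AF1 knockdown.

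SNORD3B-1 and SNORD3B-2, 2 U3 copies that face each other with starts 2224 bp apart, were covered by 1 peak in every list. In the control it ran over chr17:19061801-19064275 with a fold enrichment of 43.99, the third highest value of the list. The U2AF1 knockdown peak had a fold of 26.9 and rank 4, and the DHX9 knockdown peak a fold of 33.2 and rank 21. Fold values are the authors' own, set against each list's background, and ranks from lists of unequal length show no change by themselves. By the −log10 p-value the same peak had ranks 4, 4 and 5. Both rankings come from the same peak lists, so the ranks by p-value are not separate support for those by fold. Its summit lay close to the end of SNORD3B-2 in all 3 lists, 288 bp past that gene's start in the control, 314 bp in the U2AF1 knockdown and 308 bp in the DHX9 knockdown. These summits are 72, 98 and 92 bp past the end of the SNORD3B-2 RNA, on the side that faces SNORD3B-1. Both ends of the peak were steady: the left edge moved over 17 bp and the right edge over 34 bp among the lists.

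SNORD3A and SNORD3C are the other facing pair, with starts 2229 bp apart, and again 1 peak covered both. It had a fold of 18.1 and rank 37 in the control, 17.7 and rank 19 in the U2AF1 knockdown, and 41.5 and rank 10 in the DHX9 knockdown. By −log10 p its ranks were 8, 7 and 8, closer together than the ranks by fold. The summit fell inside the SNORD3A RNA, 115 bp past its start in the control and 117 bp past it in both knockdown lists, a spread of 2 bp. The upstream edge on the SNORD3A side was 156, 124 and 157 bp before the start. On the SNORD3C side it was 193 bp before the start in the control and 59 and 52 bp before it in the U2AF1 and DHX9 knockdown lists, so the control peak reached farther on that side.

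SNORD3D stands alone between the pairs, on the minus strand. Its peak had a fold of 18.97 and rank 31 in the control, 19.2 and rank 15 in the U2AF1 knockdown, and 49.4 and rank 3 in the DHX9 knockdown. Ranks by −log10 p were 14, 12 and 6. The U2AF1 knockdown peak was the shortest, at 858 bp against 1358 bp in the control and 1599 bp in the DHX9 knockdown. Its upstream edge also lay inside the gene, 74 bp past the start, whereas the other lists had it 104 and 103 bp before the start. The summit was 608 bp past the start in the control, 369 bp in the U2AF1 knockdown and 580 bp in the DHX9 knockdown, all beyond the end of the RNA.

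The order of the 3 U3 peaks was not the same in each list. The SNORD3B-1 and SNORD3B-2 peak had 2.32 times the fold of the SNORD3D peak in the control, 1.4 times in the U2AF1 knockdown and 0.67 times in the DHX9 knockdown. Against the SNORD3A and SNORD3C peak the ratios were 2.43, 1.52 and 0.8. The pair that led in the control and in the U2AF1 knockdown thus came last of the U3 peaks by fold in the DHX9 knockdown, and with 1 list per condition this has no error. By −log10 p the order of SNORD3B-1 and SNORD3B-2 before the other U3 peaks was kept in all 3 lists.

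**Figure D2:**
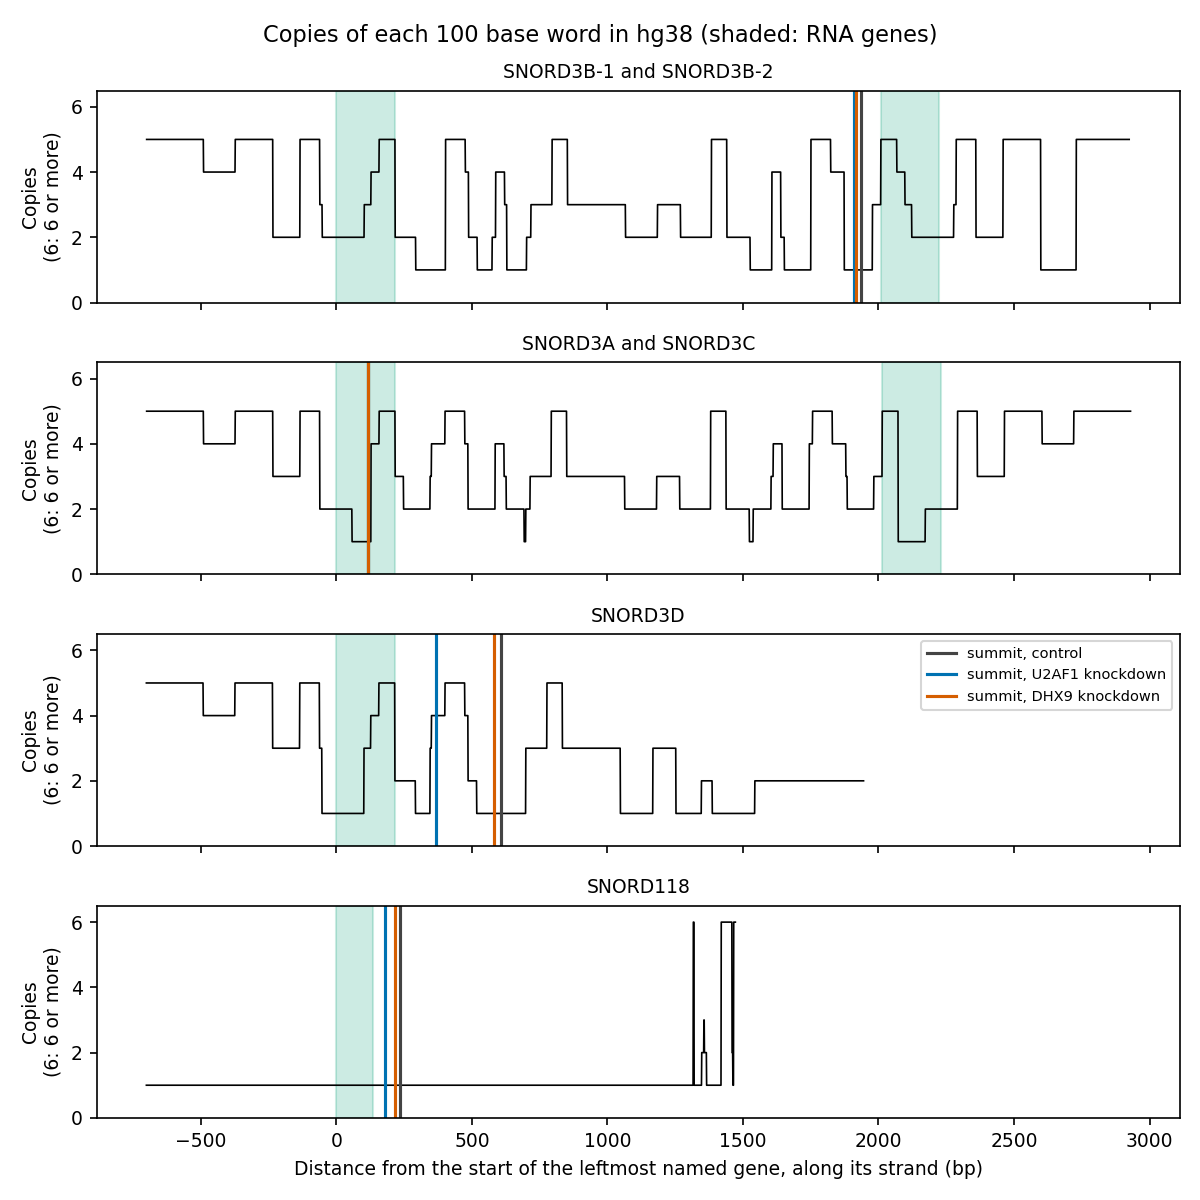
Number of places in hg38, on either strand, that hold each 100 base word, plotted at the word's middle against distance in bp from the start of the first gene named, with 6 standing for 6 or more. Shading marks the RNA genes and vertical lines the summits. In 8 of the 9 U3 summits the word at the summit is found once, and SNORD118 is unique throughout its peak.

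How far a read can be placed among the copies was read from hg38 by counting every word of 50 and 100 bases. Of the 100 base words in the SNORD3B-1 and SNORD3B-2 peak, 21.9% were found once in the genome for the control peak, 22.4% for the U2AF1 knockdown peak and 22% for the DHX9 knockdown peak. For the SNORD3A and SNORD3C peak the shares were 7.66%, 8.21% and 8.12%. For SNORD3D they were 40.5%, 31% and 44.2%. With 50 base words the shares in the SNORD3B-1 and SNORD3B-2 peak fell to 9.07%, 9.26% and 9.11%. No 50 or 100 base word of the RNA or of the 250 upstream bases of SNORD3B-1 and SNORD3B-2 was found once.

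The plot of word copies shows where stretches of 100 bases are unique. The 100 base word centred on the summit was found once for 8 of the 9 U3 summits. The exception was SNORD3D in the U2AF1 knockdown list, where it was found 4 times. Within 100 bases of the SNORD3D summit 100% of the words were found once in the control and DHX9 knockdown lists and 27.5% in the U2AF1 knockdown list. Within 100 bases of the other summits the shares were 90.2%, 86.3% and 92.2% for SNORD3B-1 and SNORD3B-2, and 61.8%, 59.8% and 59.8% for SNORD3A and SNORD3C. With 50 base words the same stretches were far less distinct. The share found once was 35.5% in each list for SNORD3B-1 and SNORD3B-2, 13.2% in each list for SNORD3A and SNORD3C, and 57.9%, 2.63% and 46.1% for SNORD3D. Read length and the handling of reads that map to several places are not given in the sources used here, and the part of these copies in the U3 folds, summits and their order was not tested.

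SNORD118, the U8 gene, lies at chr17:8173454-8173587 on the minus strand, inside the annotated 3′ UTR of TMEM107, a gene of the ciliary transition zone. It has no such copies: every 100 base word of its peaks was found once. Its fold was 25.8 with rank 13 in the control, 19.5 with rank 14 in the U2AF1 knockdown and 34.7 with rank 20 in the DHX9 knockdown. By −log10 p it stood lower, at ranks 30, 27 and 39. The peak was 1032, 811 and 1166 bp wide and began 119, 99 and 143 bp before the start. Its summit lay past the end of the RNA in each list, by 101 bp in the control, 44 bp in the U2AF1 knockdown and 82 bp in the DHX9 knockdown.

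TMEM107 is transcribed in the same direction, and its own start is farther upstream. The summit of the SNORD118 peak was 2965, 2908 and 2946 bp from the nearest annotated start of a TMEM107 transcript. Neither the control nor the U2AF1 knockdown list had a summit within 1000 bp of the start of the TMEM107 gene. The DHX9 knockdown list had 1, with a fold of 3.79, rank 3938 and a width of 207 bp. The polymerase peak at SNORD118 was therefore separate from the host gene's promoter in each list, though peak lists cannot tell polymerase on SNORD118 from polymerase reading through TMEM107.

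SNORD13, the U13 gene on chromosome 8, had the lowest ranked member peak in both lists that held it. The control peak had a fold of 10.8 and rank 87, or 138 by −log10 p, and was 843 bp wide. The DHX9 knockdown peak had a fold of 16.8 and rank 70, or 97 by −log10 p, and was 681 bp wide. The U2AF1 knockdown list had no peak there, and its nearest summit was 4249242 bp away. The −log10 q values at SNORD13 were 48.8 and 44.1, and the U2AF1 knockdown list went down to a −log10 q of 1.3. Such values are not on 1 scale across lists. At every member with a peak in both, the value was lower in the U2AF1 knockdown than in the control. It was 80.4 against 238 at SNORD118, and 257 against 710 at SNORD3B-1 and SNORD3B-2. Of the 87 control peaks ranked at or above SNORD13, 78 overlapped a U2AF1 knockdown peak (89.7%) and 9 did not. Of the 70 such DHX9 knockdown peaks, 68 overlapped one (97.1%) and 2 did not; SNORD13 itself is counted among those that did not. By −log10 p, 17 of the 138 control peaks at or above SNORD13 had no overlap, and of the 101 control peaks within 50 ranks of it by fold 88 overlapped a U2AF1 knockdown peak. These counts describe the lists, and since SNORD13 was chosen with its presence known nothing is read from them. Whether the polymerase signal itself was lower cannot be read from a list that holds called peaks alone.

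The SNORD13 start is 290 bp from that of TTI2, a gene of the TTT complex that runs the other way. The summit was 250 bp past the SNORD13 start in the control and 236 bp past it in the DHX9 knockdown, on the SNORD13 side and 540 and 526 bp from the TTI2 start. The upstream edge lay 153 and 51 bp before the SNORD13 start, so the peak stopped short of the TTI2 start in both lists. The nearest other peak was 4181465 bp away in the control list and 3417868 bp away in the DHX9 knockdown list. TTI2 thus had no separate peak in either list. With its summit within 1000 bp of the TTI2 start, the SNORD13 peak also counts for TTI2 by the rule used here. Peak lists cannot tell polymerase on SNORD13 from polymerase on TTI2.

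The member peaks were wide. Their median width was 1358 bp in the control, 1635.5 bp in the U2AF1 knockdown and 1599 bp in the DHX9 knockdown. The median over all peaks was 319, 287 and 324 bp. The U2AF1 knockdown value is over 4 peaks, without SNORD13, and lies between peaks of 858 and 2413 bp. Each of the 4 was narrower than the control peak of the same locus. The U3 pairs had 2424 against 2475 bp and 2413 against 2579 bp, SNORD3D 858 against 1358 bp and SNORD118 811 against 1032 bp. Of the 9 control peaks over 2000 bp, 2 were the peaks of the U3 pairs, as were 2 of 9 in the U2AF1 knockdown list and 2 of 12 in the DHX9 knockdown list. The SNORD3A and SNORD3C peak was the third widest control peak at 2579 bp, and the peak of SNORD3B-1 and SNORD3B-2 the fourth at 2475 bp. In these pairs 1 peak covers 2 genes, and the single gene peaks of SNORD3D, SNORD118 and SNORD13 ranged from 681 to 1599 bp.

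**Figure D3:**
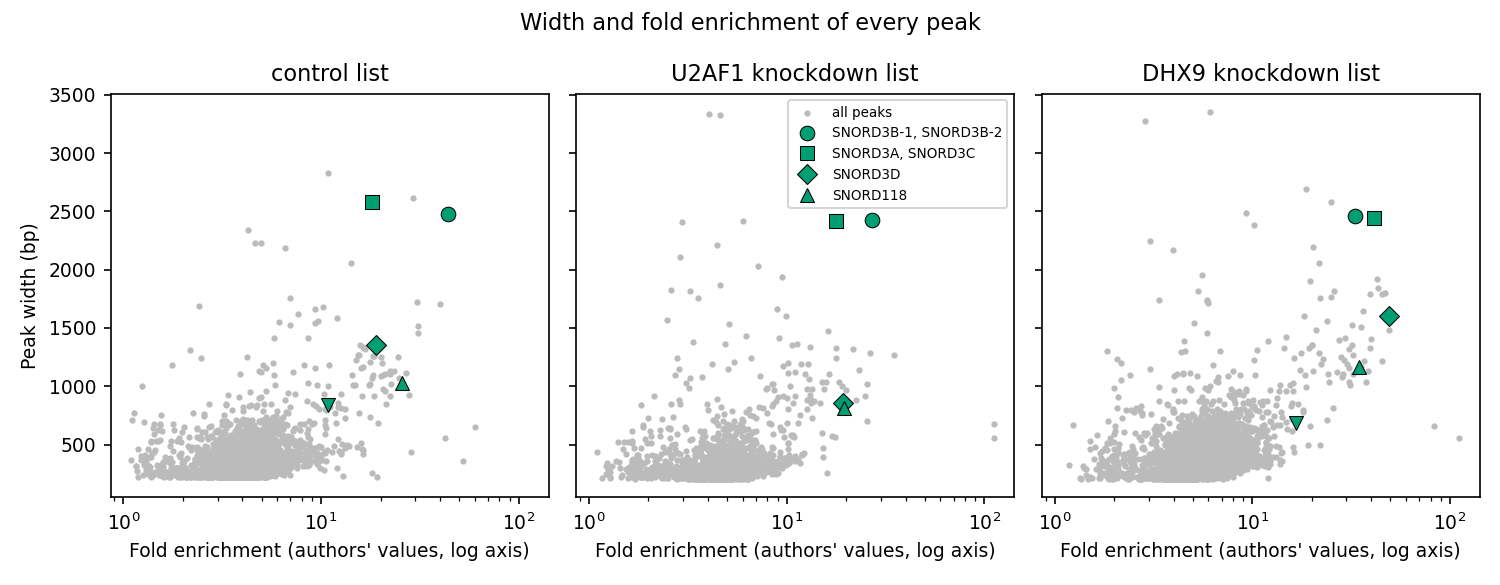
Width in bp against the authors' fold enrichment (log axis) for every peak of each list in grey, with the member peaks in green. In each list the 2 peaks that span U3 pairs are 2413 to 2579 bp wide, and the other member peaks lie between 681 and 1599 bp.

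Summits lay downstream of the start at every member. Taking the nearer gene of each pair, the offset ran from 115 to 608 bp in the control with a median of 250 bp, from 117 to 369 bp in the U2AF1 knockdown with a median of 246.5 bp, and from 117 to 580 bp in the DHX9 knockdown with a median of 236 bp. Summits within 1000 bp of a protein-coding start had median offsets of 75, 88 and 79 bp, with upper quartiles of 142, 178 and 166 bp. Since these RNAs are short, most member summits fell past the end of the RNA. The SNORD3A summit, inside its RNA, was the exception in every list.

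Promoter letters were searched on both strands from 250 bases before to 50 after each start, the proximal sequence element as CNCCNTNA, a form written after the U3 promoter had been read. It was found at 61 bases before the start in all 5 U3 copies, which are near-identical and count as 1 observation, at 24 and 237 bases before the start in SNORD13, not at all in SNORD118, and in 39.3% of 35116 RefSeq promoters of the same length. CCAAT was found at 246 bases before the start in the U3 copies, at 28 bases after the start in SNORD13, not in SNORD118, and in 34.6% of promoters. The octamer ATGCAAAT was found in SNORD13 alone and in 1.77% of promoters, and TATAAA in SNORD13 alone and in 11.5%. GGGCGG, the GC box, was in none of the members and in 45% of promoters. A match is only a match of letters, and the motifs do not overlap in the U3 promoter shown above.

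Of 81 other annotated loci named for U3, U8 or U13 (55, 22 and 4), 1 had a peak in any list. It is a U3 locus, ENSG00000212195, at chr17:58631641-58631836 on the minus strand in an intron of TEX14, a gene of germ cell intercellular bridges. Its first 82 bases are shown with the 13 that differ from SNORD3A in capitals (chr17:58631755-58631836).
U3 locus in TEX14: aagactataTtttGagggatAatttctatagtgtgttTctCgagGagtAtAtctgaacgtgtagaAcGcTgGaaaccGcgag

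This locus was ranked among the members. Its fold was 27.8 with rank 11 in the control, 19.8 with rank 13 in the U2AF1 knockdown and 31.4 with rank 26 in the DHX9 knockdown. Its summit lay 195, 184 and 317 bp past the start, and its peak was 921, 846 and 1012 bp wide. The first 82 bases were 84.1% identical to SNORD3A, while the whole locus was 72.2% identical over 205 aligned columns and its 250 upstream bases 49.2%. Every 50 and 100 base word of its RNA and its peaks was found once, so reads of those lengths from the U3 copies do not match it exactly. CNCCNTNA was found 60 bases before its start, and the octamer 225 bases before it. No transcript can be read from a peak list, and whether this locus makes an RNA was not tested.

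TEX14 held 2 further peaks in every list, and both lay at other annotated RNA genes on the same strand, which were looked at after their values were seen. One was at RNVU1-34, a U1 snRNA variant, with folds of 24.9, 12.7 and 28.9. The other was at ENSG00000290039, with folds of 21.2, 12.7 and 32.6. Their summits were 200 to 280 bp past the starts, close to the offset of the U3 locus.

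The genes whose ranks were most like those of the members were sought among 815 sets of peaks with a peak in each list. The measure was the mean absolute difference in log10 rank over the 3 lists. It was taken from the median of the 6 members with a peak in all 3 lists, so without SNORD13. The 5 closest were RNU7-1 (0.121), RNVU1-15 (0.145), ENSG00000270022 (0.165), TEX14 (0.167) and RNU5A-1 (0.187). RNU7-1, the U7 RNA of histone 3′ end processing, had ranks 17, 16 and 25. RNVU1-15, a U1 variant, had ranks 18, 12 and 7, and RNU5A-1, a U5 gene, had ranks 23, 10 and 31. ENSG00000270022 starts where RNU12, the U12 RNA of the minor spliceosome, starts. The ranks that stood for TEX14 in the control and the U2AF1 knockdown came from the U3 locus in its intron.

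**Figure D4:**
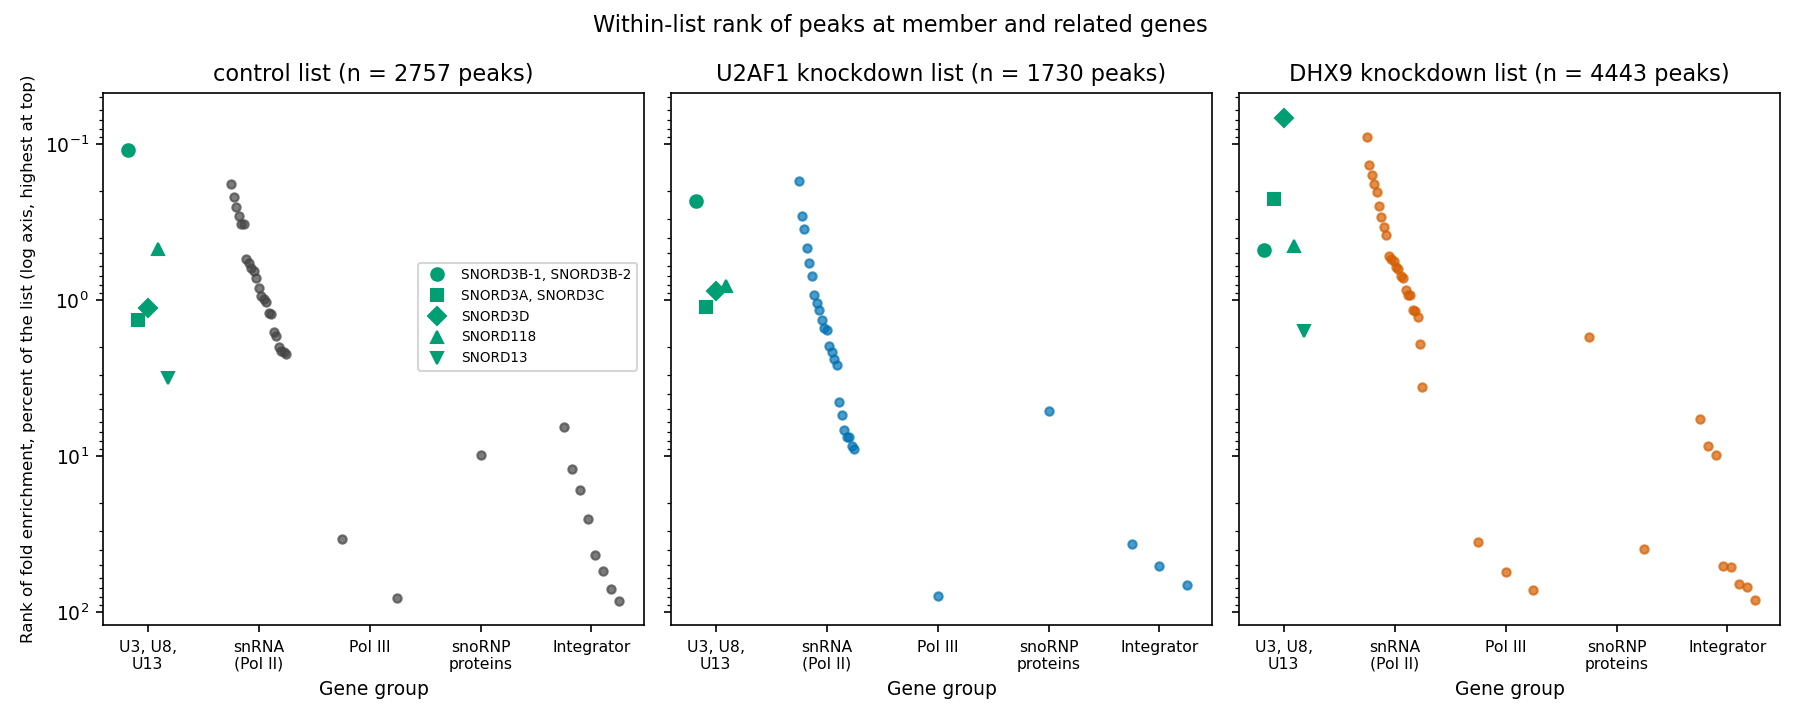
Rank by fold enrichment as a percentage of each list, on a log axis with the highest ranks at the top, for the peaks of the members (green, 1 symbol per locus) and for genes of related groups (1 point per gene with a peak). The members and the snRNA genes lie in the top 10% of each list, and the polymerase III genes below it.

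The snRNA genes made by polymerase II from promoters of the same kind were the group beside which the members stood. Of 24 such genes 23 had a peak for the control, 23 for the U2AF1 knockdown and 24 for the DHX9 knockdown. Their median rank, counted per gene, was 0.834%, 1.56% and 0.585% of the list. The median over the separate member peaks was 1.12%, 0.838% and 0.45%. The U2AF1 knockdown value of the members is over 4 peaks, without SNORD13. That gene had the lowest ranked member peak of the other lists, at 3.16% in the control and 1.58% in the DHX9 knockdown. In the highest 1% of the list stood 14, 7 and 19 of the snRNA genes, and 2 of 5, 3 of 4 and 4 of 5 of the member peaks. RNU7-1, RNVU1-15, RNU1-27P, RNU5A-1 and RNU12 were in the highest 1% of all 3 lists. RNU2-2P, a U2 gene, had ranks 5, 5 and 57. RNU5E-1, a U5 gene, had ranks 61, 94 and 9, so wide differences in rank between lists were seen at snRNA genes as well as at U3.

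The snRNA peaks were also wider than the median peak of each list, with median widths of 1250, 1017 and 1410 bp, counted per gene. The member medians of 1358, 1635.5 and 1599 bp are over separate peaks and include those that span U3 pairs. The member peaks at a single gene were 1358, 1032 and 843 bp in the control and 858 and 811 bp in the U2AF1 knockdown. In the DHX9 knockdown they were 1599, 1166 and 681 bp. The median summit offset of the snRNA genes was 239 bp in the control, beside 250 bp for the members. In the knockdown lists it was 352 and 377.5 bp, farther downstream than the 246.5 and 236 bp of the members, a difference that was not tested. For a peak shared by a pair the member medians take the nearer gene alone, whereas the snRNA medians take every gene. The pair RNU4-1 and RNU4-2, the U4 genes, shared 1 peak of 2614 bp in the control and of 2583 bp in the DHX9 knockdown, a shared peak like those of the U3 pairs. In the U2AF1 knockdown the U4 genes had separate peaks of 979 and 1102 bp, whereas both U3 pairs kept a single peak of 2424 and 2413 bp.

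Genes with external promoters that are made by RNA polymerase III stood apart from both groups by rank. Of 12 such genes 2 had a peak for the control, 1 for the U2AF1 knockdown and 3 for the DHX9 knockdown. RPPH1, the RNA of RNase P, had ranks 930, 1357 and 3210, and RMRP, the RNA of RNase MRP, had rank 2240 in the control and 1588 in the DHX9 knockdown.

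None of the protein genes of the snoRNA pathway ranked in the highest 1% of a list. Of the 5 genes for proteins of box C/D particles, NOP56, a core scaffold protein, had ranks 272, 89 and 77. FBL, the methyltransferase fibrillarin, had a peak in the DHX9 knockdown list alone, at rank 1756. NOP58, SNU13, which binds the kink-turn of box C/D, and RRP9, a U3-specific protein, had none. Of 14 genes for particle assembly and the RNA cap, 1, 0 and 4 had a peak. For the promoter factors of snRNA genes the counts were 3, 2 and 4 of 11, for Integrator 8, 3 and 8 of 15, and for proteins of the small subunit processome, in which U3 acts, 3, 1 and 4 of 12. These counts include peaks that overlap a gene far from its start. The processome gene with a U2AF1 knockdown peak had the summit 8588 bp past its start. A promoter factor gene had it 2170 bp past its start in that list, and an Integrator gene 8663 bp in the DHX9 knockdown. Over all annotated genes the shares with a peak by the same rule were 5.93%, 3.42% and 9.79%. Each of these counts was lowest in the U2AF1 knockdown list, the shortest of the 3, apart from the box C/D proteins, where the control had as few. The median ranks of these groups with a peak lay between 5.14% and 65.3% of the list.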

How the data were processed

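POLR2A ChIP-seq of HEK293T cells was analysed from 3 peak lists, 1 per condition. Per the submitters' processing notes the tools were Bowtie2 2.4.5, deepTools 3.5.1 and MACS2 2.2.7.1, with hg38 as the build; their settings and the read depths are not given in the sources used here. The deposited lists give for each peak a fold enrichment, a ratio over background, and a p-value and q-value as −log10, as the authors' peak caller wrote them. The other deposited values are positions and the summit offset, taken as they are. Peaks were assigned to GENCODE version 44 genes by the rule in the text, the peak of highest fold was kept, and ranks were taken within each list. Words of 50 and 100 bases were counted on both strands of hg38, alternate sequences included, which changed no share. Sequences were read from hg38 and the promoter background from RefSeq. Python 3.11.15, pandas 2.3.3, numpy 2.4.6 and pysam 0.24.0 were used. The assignment and word counting were tested on simulated data. Alternatives covered the window, a −log10 q of at least 5, equal list lengths, other rankings, chromosomes and merged peaks. The members and gene lists were chosen with earlier results of these data known. Named genes were all members, related loci with a peak, the 5 most alike genes, and genes of the related lists in the highest 1% of any list (of which examples are given) or in lists of at most 5 genes; other genes were named for their position beside a member.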

Additional observations from a re-analysis of the deposited data

How the results depend on the processing

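Another window (500 or 2000 bp), overlap alone, a −log10 q of at least 5 and lists of equal length left the numbers of members with a peak at 7, 6 and 7, with 6 in all 3 lists; counted as separate peaks they are 5, 4, 5 and 4. Taking the summit nearest to the start left every summit offset as it was. Of 56 recomputed ranks, 38 stayed within the 95% Wilson interval of the rank by fold and 18 did not. That interval treats a rank as a share of the list and is a tolerance alone. It measures no sampling spread of a rank. All 18 were ranks by −log10 p or −log10 q, which gave equal values. In the control these were 8 for SNORD3A and SNORD3C, 14 for SNORD3D, 30 for SNORD118 and 138 for SNORD13. In the U2AF1 knockdown they were 7 for SNORD3A and SNORD3C and 27 for SNORD118. In the DHX9 knockdown they were 5 for SNORD3B-1 and SNORD3B-2, 39 for SNORD118 and 97 for SNORD13. The cause was not tested. No paired analysis was possible because peaks were given as 1 list per condition, and leaving out replicates could not be run for the same reason. Limits of the data are that the lists hold called peaks alone, without depth, that lists of different lengths have different floors, and that at the U3 genes most positions have near-identical copies.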
